A study of Mus musculus with 12 samples.

Results

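The genes described here are 36 genes of the unfolded protein response and the integrated stress response in mouse liver. They were chosen by symbol from the 28036 genes of the deposited count table. All 36 were found, and all 36 were among the 13988 genes with enough counts to be tested. By role, 15 are chaperones and folding enzymes of the endoplasmic reticulum (ER): Hspa5, Hsp90b1, Hyou1, Pdia3, Pdia4, Pdia5, Pdia6, Dnajb9, Dnajb11, Dnajc3, Sdf2l1, Creld2, Manf, Calr and Canx. Another 6 act in ER-associated degradation: Herpud1, Sel1l, Syvn1, Edem1, Derl1 and Derl3. The stress sensors and their transcription factors are 5 genes: Ern1, Atf6, Eif2ak3, Xbp1 and Creb3l3. The ATF4 branch holds 10 genes: Atf4, Ddit3, Trib3, Asns, Chac1, Ppp1r15a, Psat1, Phgdh, Sesn2 and Cebpb.

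Poly(A) RNA was sequenced from 12 livers of C57BL/6J mice, 3 in each of 4 groups, labelled 12 weeks. Control mice were on normal chow, while 9 mice were on a high-fat diet to model MASH (metabolic dysfunction-associated steatohepatitis), in which fat builds up in an inflamed liver. After 8 weeks of diet, the EE group was given 100 mg/kg Eleutheroside E by mouth, the resmetirom group was given 3 mg/kg resmetirom, a thyroid hormone receptor beta agonist, and control and MASH mice were given the vehicle, 0.5% CMC-Na. Dosing lasted 4 weeks, and the design asks how the diet and then each compound on the diet changed the liver. EE 1 stands for replicate 1 of the EE group, and so on. The labels call the samples replicates of a group without naming the animal of each, so p-values measure the spread between these samples only.

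Secreted and membrane proteins fold in the ER with the help of chaperones, oxidoreductases and lectins. When unfolded proteins build up, the sensors IRE1 (Ern1), ATF6 and PERK (Eif2ak3) start the unfolded protein response: IRE1 splices the Xbp1 mRNA, ATF6 is cut to release a transcription factor, and PERK phosphorylates eIF2 alpha. Spliced XBP1 and cut ATF6 raise chaperone and degradation genes. Phosphorylated eIF2 alpha, which other kinases also make on amino acid shortage or viral infection, lowers general translation and favours translation of ATF4, which raises genes of amino acid synthesis, redox balance and cell death. Hepatocytes secrete most plasma proteins and keep these genes active without disease. Splicing, cutting, phosphorylation and translation cannot be read from counts of reads per gene, so every value below is an mRNA level.

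The promoters of the chaperone genes are known for the ER stress response element (ERSE), which ATF6 and XBP1 bind. Sequences are shown for some of the members that carry it, and for Herpud1, which carries a related element. RefSeq promoter sequences (assembly GRCm38.p6, from 250 bases before to 50 bases after the start of the gene) were given for 32 of the 36 members. Both strands were searched for ERSE (CCAAT and CCACG, 9 bases apart), the related ERSE-II (ATTGG and CCACG, 1 base apart), the core of the XBP1 element (TGACGTGG) and the ATF4 element CARE (TGATGNAAT). ERSE and ERSE-II share CCACG, and ATTGG is the reverse complement of CCAAT, so their matches can overlap; 0 member promoters held both. The stretches below run 5′ to 3′ on the strand of the gene, with 15 bases on either side of the motif and the fixed letters of the motif in capitals. Hsp90b1 holds ERSE once on either strand.
Hspa5, chr2:34772010-34772058 (+), ERSE: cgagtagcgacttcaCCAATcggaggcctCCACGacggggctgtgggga
Hsp90b1, chr10:86705518-86705671 (-), ERSE: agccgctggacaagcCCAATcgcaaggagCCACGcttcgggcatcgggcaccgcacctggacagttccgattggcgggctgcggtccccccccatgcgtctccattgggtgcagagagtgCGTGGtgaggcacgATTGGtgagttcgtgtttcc
Calr, chr8:84847060-84847108 (-), ERSE on the other strand: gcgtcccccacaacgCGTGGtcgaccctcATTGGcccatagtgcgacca
Creld2, chr15:88819505-88819553 (+), ERSE on the other strand: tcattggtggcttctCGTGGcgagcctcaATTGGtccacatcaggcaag
Pdia6, chr12:17266476-17266524 (+), ERSE: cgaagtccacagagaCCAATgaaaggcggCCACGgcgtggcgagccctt
Derl3, chr10:75893227-75893275 (+), ERSE on the other strand: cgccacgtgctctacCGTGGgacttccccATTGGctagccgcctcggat
Herpud1, chr8:94386362-94386402 (+), ERSE-II: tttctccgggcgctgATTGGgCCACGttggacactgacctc

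ERSE was found in 9 of the 32 member promoters (Calr, Canx, Creld2, Derl3, Dnajc3, Hsp90b1, Hspa5, Pdia6 and Syvn1), and in 0.119% of the 32851 mouse promoters of the same length. ERSE-II was found in 2 members, Herpud1 and Dnajb11, and in 0.0365% of all promoters. All 11 belong to the folding and degradation classes. The searched letters of the XBP1 core and of CARE were in 0 member promoters, against 0.676% and 0.965% of all promoters, which says only that these letters are not in this window. Hyou1, Derl1, Manf and Atf6 had no promoter entry.

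Library totals ranged from 17297864 to 21793311 counts, and levels are given as CPM (counts relative to library size, scaled by the trimmed mean of M values). Control 1 stood apart from the other livers, with 34.9% of its counts from mitochondrially encoded genes against 2.35% to 4.32% in the other 11. Resmetirom 1 and 2 also stood apart. Summed markers of Kupffer cells and stellate cells, at 957 and 730 CPM, were highest of the 12 in resmetirom 1, while those of plasma and B cells and of pancreatic acinar cells, at 158 and 110 CPM, were highest in resmetirom 2. All 10 hepatocyte markers were detected, with sums from 60482 CPM in resmetirom 1 to 159195 CPM in control 1. In whole liver, fewer cells of a type and less RNA per cell cannot be told apart.

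No member passed between EE and MASH, resmetirom and MASH, MASH and control, or EE and control at the 0.05 threshold on the adjusted p when all 12 livers were fitted together (edgeR's quasi-likelihood test, Benjamini-Hochberg over all tested genes). Psat1, an enzyme of serine synthesis, was the 1 member that rose in resmetirom against control and the 1 that differed over the 4 groups. The shares of all tested genes called were 0.00715% in EE against MASH, 0.665% in resmetirom against MASH, 0.0143% in MASH against control, 0.100% in EE against control, 3.16% in resmetirom against control and 1.60% over the 4 groups, so few calls were made among all genes too. At an unadjusted p below 0.05, 6 members were higher in EE than in MASH, 6 were higher in resmetirom than in MASH, 1 was lower in MASH than in control and 2 were higher in EE than in control. Of all tested genes 7.49%, 15.03%, 9.23% and 16.1% passed that threshold in either direction in these 4 comparisons, and DESeq2 called 0, 5, 0 and 0 members. In resmetirom against control 5 members were higher and 1 was lower at an unadjusted p below 0.05, against 22.9% of all genes. On simulated data the 12-liver fit called 12% to 16% of 2-fold changes, so a member that was not called may still differ.

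The directions of the fold changes differed between the comparisons. In EE against MASH 31 of 36 members had a positive log2 fold change, with a median of 0.43, against 47.6% of all tested genes and a median of -0.02. Between the same livers the hepatocyte marker sum was 76321 to 92806 CPM in MASH and 100514 to 109810 in EE, and the stellate cell marker sum was 261 to 299 and 148 to 209 CPM, without overlap in either. Most of the hepatocyte sum was Alb. Alb, Apoa1, Serpina1a, Hnf4a, Cps1, Pck1 and Fgb were higher in every EE liver, and Ttr and Tat overlapped. Apob went the other way, at 2856 to 3369 CPM in MASH and 1752 to 2100 in EE. The part of hepatocytes and stellate cells in the fold changes was not tested. In resmetirom against MASH 26 members were positive, with a median of 0.32, against 54.2% and 0.06. In MASH against control 13 were positive, with a median of -0.21, against 48.4% and -0.02; 8 were positive without control 1 and 18 without control 2. EE and resmetirom were both compared with the same MASH livers, and MASH 1 was the highest MASH liver for 26 of 36 members, against 33.6% of all genes. Scaled by library totals alone, where the median of all genes in EE against MASH moved to -0.32, 21 members were positive there with a median of 0.13. In MASH against control that scaling gave a median of 0.37 for all genes and 23 positive members, with a median of 0.19.

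For some members the 3 livers of a group lay entirely above or below those of the other. In EE against MASH this held for 14 members (38.9%), against 16.7% of all genes, and 1 member, Atf6, lay entirely below, against 15.5% of all genes. In resmetirom against MASH 7 members (19.4%) lay above, against 11.6% of all genes, and Canx and Atf6 lay below, against 12.3%. In MASH against control Psat1 lay above, against 10.2% of all genes, and 6 members (16.7%) lay below, against 9.41%: Hsp90b1, Pdia3, Pdia5, Calr, Derl3 and Ddit3.

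**Figure D1:**
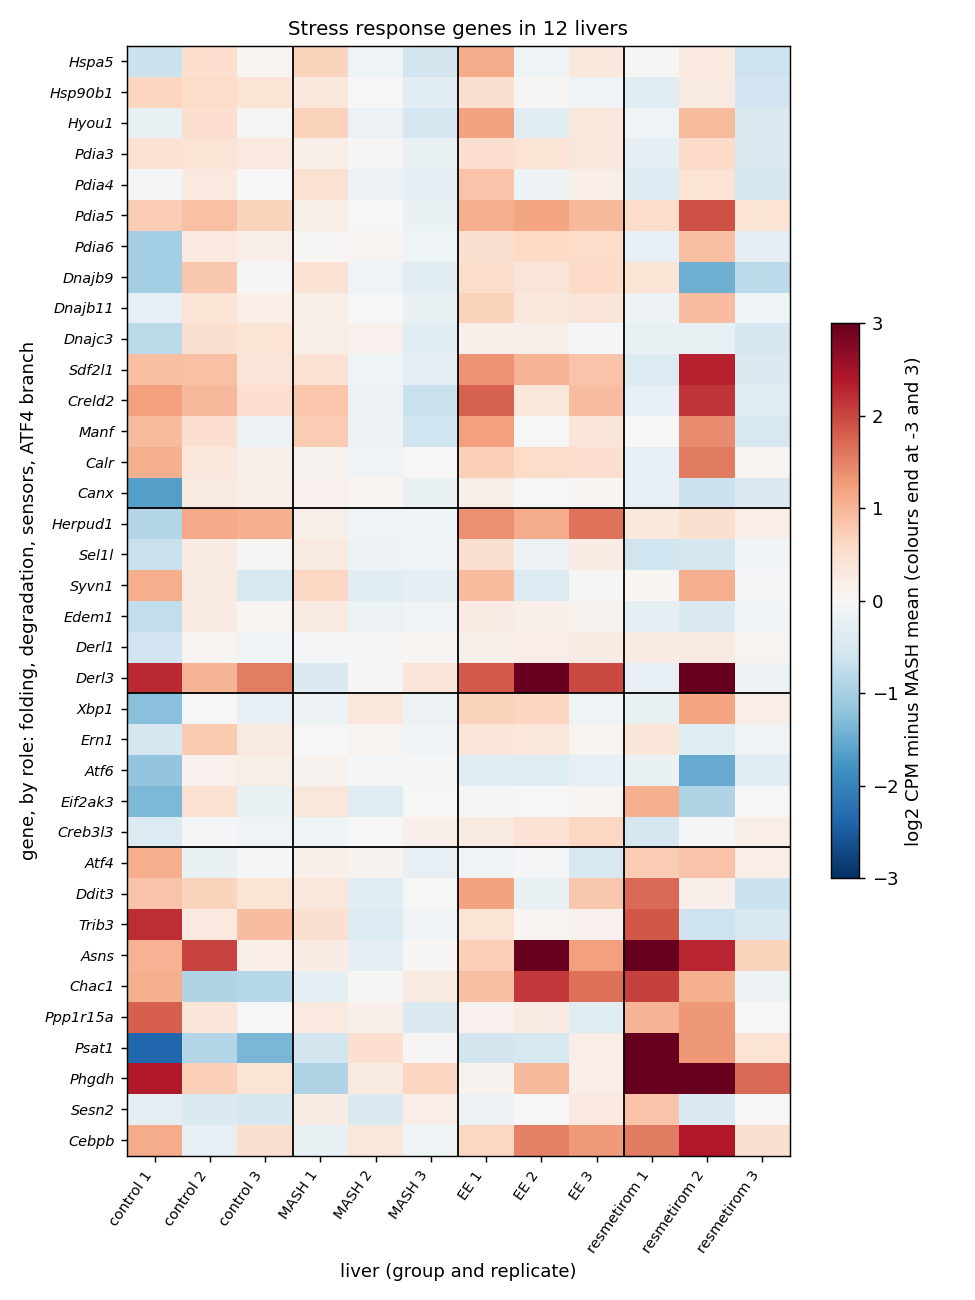
Each row is 1 of the 36 genes, grouped by role, and each column is 1 of the 12 livers; colour shows log2 CPM relative to the mean of log2 CPM over the MASH livers. The 3 EE columns are above the MASH mean for most folding and degradation genes. Resmetirom 2 holds the highest of the 12 values for 12 of the 36 genes, against 16.5% of all tested genes.

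Among the folding enzymes, all 15 had a positive fold change in EE against MASH, with a median of 0.46, or 0.30 without MASH 3. Pdia5, a protein disulfide isomerase, gave 31.2, 28.1 and 24.1 CPM in the MASH livers, 58.8, 62.7 and 54.7 in EE, 46.7, 50.7 and 43.9 in control and 40.4, 105 and 36.8 in resmetirom. Every MASH liver was below every liver of the other groups. The log2 fold change was 1.08 ± 0.33 (SE, n = 3 per group) in EE against MASH (adjusted p = 0.595), 1.12 ± 0.33 in resmetirom against MASH (adjusted p = 0.151) and -0.76 ± 0.33 in MASH against control (adjusted p = 0.535). Without resmetirom 2 and control 1, the resmetirom difference was 0.47 ± 0.13 with an adjusted p of 0.0796.

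Sdf2l1, a partner of the chaperone BiP, gave 29.9, 19.9 and 17.8 CPM in MASH, 56.4, 45.0 and 39.8 in EE, 41.3, 40.5 and 28.9 in control and 16.6, 112 and 16.2 in resmetirom. EE lay above MASH in every liver, and the resmetirom livers fell on either side of MASH, with resmetirom 2 the highest of the 12. Pdia3, a disulfide isomerase that works with the lectins calreticulin and calnexin, gave 398, 362 and 303 CPM in MASH, 502, 466 and 444 in EE, 478, 466 and 430 in control and 286, 526 and 260 in resmetirom. Its MASH livers were all below the control and the EE livers. Its log2 fold change was 0.41 ± 0.26 in EE against MASH and -0.37 ± 0.26 in MASH against control, with adjusted p of 0.785 and 0.703.

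Hspa5 encodes BiP, the main ER chaperone, which holds the 3 sensors inactive until unfolded proteins draw it away. Its values were 846, 485 and 361 CPM in MASH, 1138, 482 and 654 in EE, 339, 747 and 564 in control and 546, 652 and 342 in resmetirom. The 4 groups overlapped, and the spread within MASH and within EE was wider than the difference between them (log2 0.43 ± 0.42, adjusted p = 0.859). Hsp90b1, the ER member of the HSP90 family, gave 761, 722 and 647 CPM in control, 608, 496 and 391 in MASH, 686, 503 and 446 in EE and 393, 594 and 329 in resmetirom. Control lay above MASH and above resmetirom in every liver, and EE overlapped with both control and MASH. The difference of MASH from control was -0.51 ± 0.28, adjusted p = 0.604.

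The next 4 folding genes were chosen after their values were seen. Pdia6, a disulfide isomerase, gave 235, 242 and 208 CPM in MASH and 317, 344 and 332 in EE, and Calr, the lectin calreticulin, gave 754, 658 and 704 and then 1158, 1036 and 1000. Both were narrow within the groups and did not overlap. Hyou1, an ER chaperone that also exchanges nucleotide on BiP, gave 210, 114 and 91.2 CPM in MASH and 299, 103 and 165 in EE, and Creld2, an ER protein that helps folding, gave 39.2, 19.5 and 13.9 and then 74.9, 28.1 and 42.0. As for Hspa5, replicate 1 was the highest liver in both groups and the groups overlapped. In Manf, a secreted ER stress protein, and Pdia4, a disulfide isomerase, replicate 1 was also the highest in both groups. Dnajc3 and Canx had fold changes near 0 in EE against MASH, at 0.06 ± 0.30 and 0.07 ± 0.38, and the BiP co-chaperones Dnajb9 and Dnajb11 were at 0.46 ± 0.48 and 0.46 ± 0.29.

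**Figure D2:**
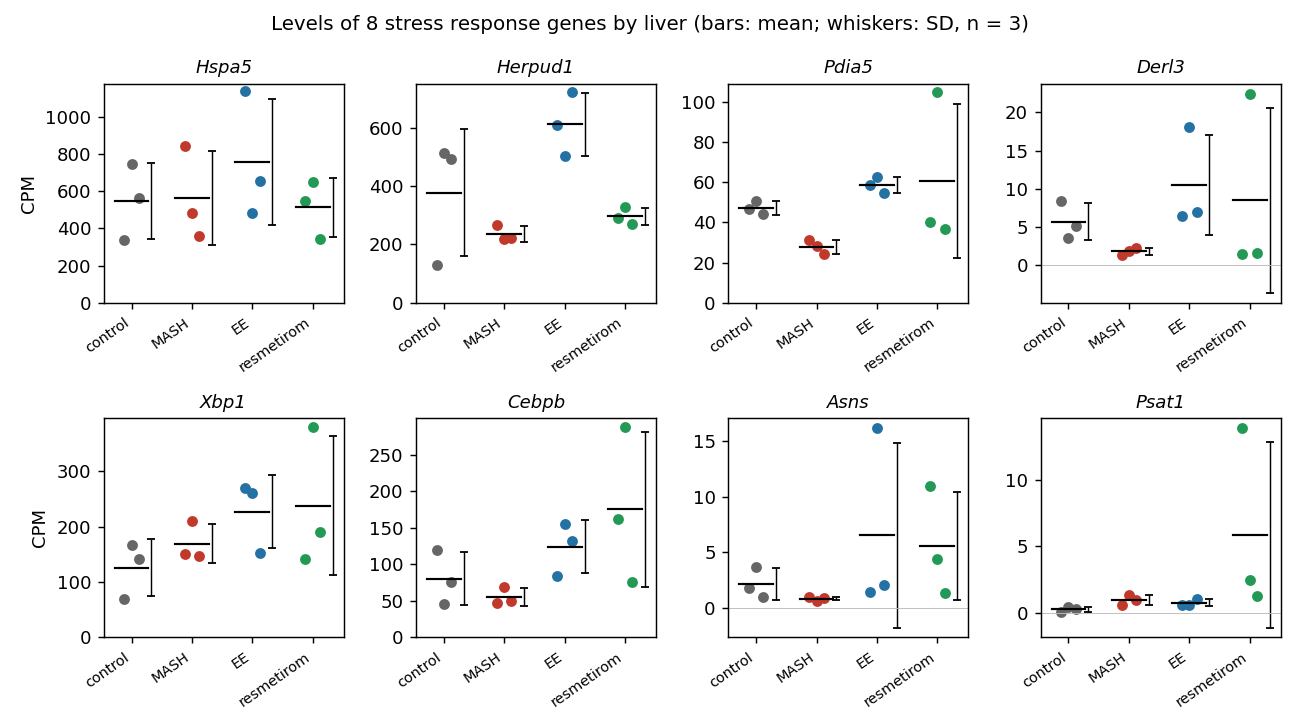
CPM of 8 of the genes, 1 panel per gene; points are the livers (replicates 1, 2 and 3 from left to right in each group), horizontal bars are group means and whiskers are the SD (n = 3). Herpud1 and Pdia5 separate EE from MASH, whereas Hspa5 overlaps across the 4 groups and Psat1 is highest in resmetirom 1, at 13.8 CPM.

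Of the degradation genes, all 6 were positive in EE against MASH, with a median of 0.21. The median was 0.47 without MASH 1 and turned to -0.089 with library totals only. Herpud1, an ER membrane protein that helps assemble the ubiquitin ligase complex of this pathway, gave 265, 219 and 221 CPM in MASH and 607, 504 and 721 in EE. It gave 128, 513 and 491 in control and 291, 328 and 270 in resmetirom. EE lay far above MASH in each liver and resmetirom slightly above it, while control 1 lay below all other livers and control 2 and 3 near EE 2. The log2 fold change of EE against MASH was 1.38 ± 0.41, or 2.60-fold (adjusted p = 0.595), and that of MASH against control was -0.68 ± 0.40 (adjusted p = 0.628). Without control 1 and resmetirom 2, Herpud1 rose in EE against MASH by 1.36 ± 0.16 (adjusted p = 0.0155), and MASH against control was -1.08 ± 0.17 (adjusted p = 0.0637).

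Derl3 is a derlin, a channel protein for the export of misfolded proteins, and is abundant in secretory cells. Its values were 1.23, 1.76 and 2.26 CPM in MASH, 6.36, 18.1 and 6.98 in EE, 8.34, 3.55 and 5.13 in control and 1.43, 22.5 and 1.49 in resmetirom. MASH lay below control and below EE in every liver, and only resmetirom 2 was high among the resmetirom livers. The log2 fold change was 2.57 ± 0.93 in EE against MASH (adjusted p = 0.61) and 2.24 ± 0.92 in resmetirom against MASH (adjusted p = 0.284), and the second turned to -0.28 without resmetirom 2. The 10 plasma and B cell markers summed to 9.66 to 13.5 CPM in MASH, 8.66 to 17.0 in EE, 11.2 to 59.2 in control and 49.6 to 158 in resmetirom, with Tnfrsf17 at 0 in every MASH and EE liver. Within that list Jchain gave 0.90, 0.96 and 0.59 CPM in MASH and 2.10, 2.01 and 1.44 in EE, and Igkc gave 2.46, 1.71 and 1.76 and then 5.59, 4.30 and 3.52, so that every EE liver lay above every MASH liver for both. The 9 acinar markers found summed to 11.5 to 20.0 CPM in MASH, 29.7 to 40.1 in EE, 12.8 to 20.7 in control and 7.20 to 110 in resmetirom. Most of the acinar sum was Cela1, while Prss2, Cpa1, Cpb1, Pnlip, Cel and Ctrb1 were at 0 in all MASH and EE livers. The part of these cells in the Derl3, Sdf2l1 and Calr values was not tested.

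Derl1, another derlin, gave 123, 123 and 131 CPM in MASH, 139, 144 and 149 in EE, 83.9, 133 and 117 in control and 147, 152 and 132 in resmetirom. EE and resmetirom lay above MASH in every liver by a small step of 0.19 ± 0.19 on the log2 scale in both comparisons. Sel1l, the adaptor of the ligase SYVN1, gave 160, 119 and 124 CPM in MASH, 186, 119 and 155 in EE, 83.9, 159 and 137 in control and 87.6, 92.0 and 127 in resmetirom. The groups overlapped. Syvn1 itself and Edem1, which recognises trimmed glycoproteins, differed by 0.23 ± 0.48 and 0.15 ± 0.25 in EE against MASH and overlapped too.

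**Figure D3:**
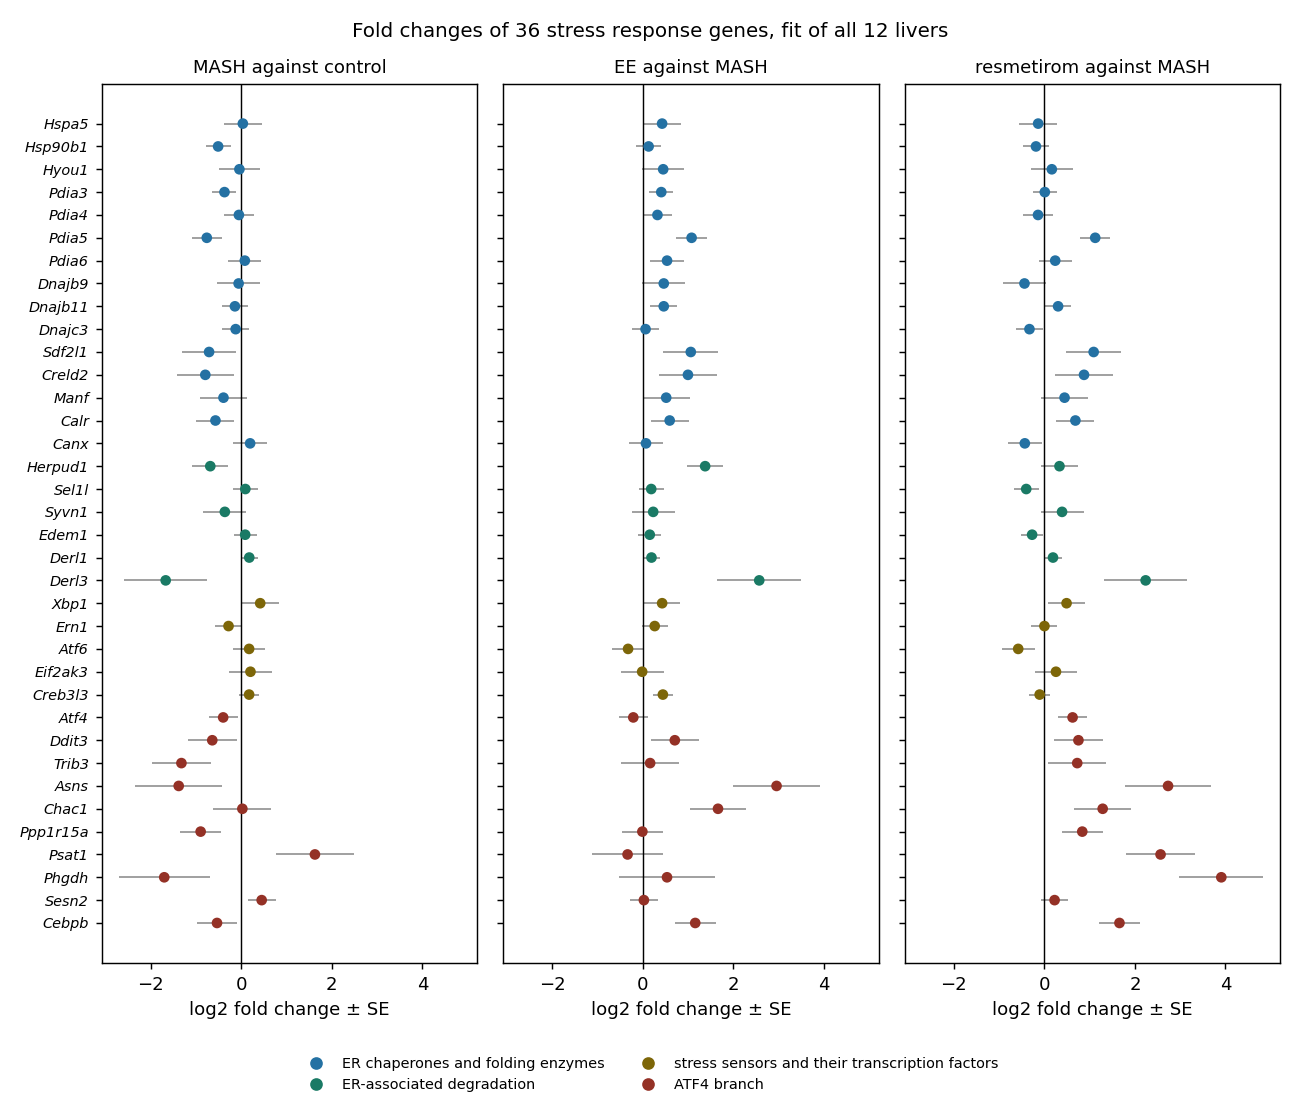
Log2 fold changes of the 36 genes with their SE, from the fit of all 12 livers, by role class and comparison. Points in EE against MASH lie mostly right of 0, at 31 of 36, and the widest error bars belong to Asns, Derl3, Psat1 and Phgdh, which have few counts in some livers.

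The sensor class had fold changes in both directions, between -0.32 and 0.44 in EE against MASH. Xbp1 gave 150, 209 and 147 CPM in MASH, 270, 260 and 152 in EE, 69.8, 168 and 141 in control and 142, 380 and 191 in resmetirom. EE 1, EE 2 and resmetirom 2 were high, and the groups overlapped (0.43 ± 0.40 in EE against MASH, adjusted p = 0.847). Creb3l3 encodes CREBH, a liver-enriched ER-bound factor of lipid metabolism and the acute phase. It gave 255, 274 and 308 CPM in MASH, 338, 376 and 425 in EE, 209, 272 and 260 in control and 194, 268 and 317 in resmetirom. EE lay above all livers of the other groups, with a difference of 0.44 ± 0.23 from MASH (adjusted p = 0.697) and 0.62 ± 0.23 from control (adjusted p = 0.221).

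Atf6 ran the other way. It gave 70.9, 62.6 and 63.0 CPM in MASH, 51.0, 50.8 and 55.1 in EE, 28.7, 71.3 and 73.6 in control and 56.6, 23.0 and 51.9 in resmetirom. EE and resmetirom lay below MASH in every liver, and control 1 and resmetirom 2 were the lowest of the 12. The difference of EE from MASH was -0.32 ± 0.36 (adjusted p = 0.872). Without control 1 and resmetirom 2, Atf6 fell in EE against control by 0.47 ± 0.11 on the log2 scale (adjusted p = 0.0428). In that fit 589 of the 14192 tested genes were called, and Atf6 was the 1 member among them. Ern1 gave 49.7, 53.1 and 47.5 CPM in MASH, 64.7, 62.4 and 53.2 in EE, 35.5, 86.6 and 60.0 in control and 64.7, 39.0 and 46.8 in resmetirom. EE lay just above MASH, and control and resmetirom spanned both. Eif2ak3 had a fold change of -0.01 ± 0.47 in EE against MASH.

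In the ATF4 branch all 10 members were positive in resmetirom against MASH, with a median log2 fold change of 1.06, or 0.66 without resmetirom 1. Atf4 gave 61.0, 58.7 and 46.1 CPM in MASH, 93.8, 98.8 and 63.0 in resmetirom, 51.1, 53.0 and 39.2 in EE and 118, 47.6 and 53.7 in control. Resmetirom lay above MASH in every liver, by 0.62 ± 0.32 (adjusted p = 0.389), EE overlapped with MASH, and control 1 was the highest of the 12. Psat1 gave 0.61, 1.38 and 0.98 CPM in MASH, 13.8, 2.47 and 1.28 in resmetirom, 0.62, 0.65 and 1.10 in EE and 0.10, 0.47 and 0.30 in control. As counts, the controls held 1, 11 and 6 and the resmetirom livers 359, 33 and 25. In CPM all 9 livers on the high-fat diet lay above control, and resmetirom 1 lay far above the rest. The MASH livers held 13, 33 and 25 counts and the EE livers 12, 12 and 19, so the lowest of them were near control 2.

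Psat1 rose in resmetirom against control by 4.19 ± 0.86 on the log2 scale (adjusted p = 0.0291). Against MASH the difference was 2.57 ± 0.76 (adjusted p = 0.149), and it was 0.90 without resmetirom 1 (adjusted p = 0.362). Without resmetirom 1 the rise over control was 2.53 ± 0.58 (adjusted p = 0.0454), and the call was lost without control 2, control 3, EE 2 or EE 3, at adjusted p of 0.0698, 0.0824, 0.052 and 0.0518. It was also lost with library totals only (adjusted p = 0.105), limma voom (0.123), the replicate block (0.0663) and the 2 groups fitted alone (0.272, and 0.688 with the block). Over the 4 groups its adjusted p was 0.0487, and the call held in 1 of the 12 fits that left out a liver, the one without resmetirom 3.

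Phgdh, the first enzyme of the same serine pathway, held 0, 3 and 5 counts in MASH and 72, 26 and 10 in resmetirom, beside 2, 5 and 2 in EE and 9, 5 and 3 in control. In CPM, resmetirom lay above MASH and EE in every liver, control 1 at 0.90 lay above resmetirom 3 at 0.51, and resmetirom 1 was again the highest. The log2 fold change against MASH was 3.91 ± 0.93 (adjusted p = 0.0808), with few counts behind it. Asns, asparagine synthetase, gave 0.99, 0.67 and 0.86 CPM in MASH, 1.44, 16.1 and 2.08 in EE, 10.9, 4.42 and 1.38 in resmetirom and 1.81, 3.72 and 0.96 in control. Both treated groups lay above MASH in every liver, with EE 2 and resmetirom 1 far above the others of their groups. The fold changes against MASH were 2.95 ± 0.96 in EE (adjusted p = 0.595) and 2.73 ± 0.96 in resmetirom (adjusted p = 0.215). They were 1.07 without EE 2 and 1.76 without resmetirom 1.

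Cebpb, a transcription factor of the acute phase and of gluconeogenesis that also pairs with ATF4, gave 47.8, 69.0 and 49.6 CPM in MASH, 84.2, 155 and 132 in EE, 162, 287 and 75.9 in resmetirom and 119, 46.3 and 76.0 in control. Both treated groups lay above MASH, by 1.16 ± 0.45 (adjusted p = 0.626) and 1.66 ± 0.46 (adjusted p = 0.123), the second being 1.09 without resmetirom 2. Chac1, which degrades glutathione, gave 1.47, 1.88 and 2.23 CPM in MASH, 3.49, 8.28 and 5.95 in EE, 7.97, 3.97 and 1.64 in resmetirom and 3.92, 0.93 and 0.96 in control. Its EE livers were all above its MASH livers (1.66 ± 0.63, adjusted p = 0.625), and resmetirom and control overlapped with MASH.

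Ddit3 encodes CHOP, the factor tied to cell death in long ER stress, and gave 3.45, 2.13 and 2.66 CPM in MASH, 6.31, 2.34 and 4.79 in EE, 9.05, 3.00 and 1.69 in resmetirom and 4.92, 4.35 and 3.60 in control. Control lay above MASH in every liver, by a difference of -0.64 ± 0.54 in MASH against control (adjusted p = 0.739), and the treated groups overlapped with both. Trib3, a pseudokinase raised by CHOP and ATF4, gave 6.24, 3.30 and 4.22 CPM in MASH, 5.90, 4.63 and 4.85 in EE, 16.4, 2.85 and 3.18 in resmetirom and 20.9, 5.41 and 8.48 in control. Its high values were in control 1 and resmetirom 1. Ppp1r15a, the phosphatase subunit that reverses eIF2 alpha phosphorylation, and Sesn2, a stress-induced inhibitor of mTORC1, differed from MASH by 0.84 ± 0.45 and 0.23 ± 0.30 in resmetirom and by -0.01 ± 0.45 and 0.02 ± 0.30 in EE.

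Per liver, the median of the ATF4 class relative to the MASH mean was 1.79 in resmetirom 1, 1.19 in resmetirom 2 and 0.11 in resmetirom 3, and it was 1.08 in control 1. In EE it lay between 0.15 and 0.27. Resmetirom 1 is the liver with the highest Kupffer cell and stellate cell marker sums, which in resmetirom 2 and 3 were at 358 and 465 CPM for Kupffer cells and at 170 and 220 CPM for stellate cells. Their part in the ATF4 class values was not tested. Atf3, another stress-induced factor, was at 32.5 CPM in resmetirom 1 and at 4.62 CPM or below in the other 11 livers.

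**Figure D4:**
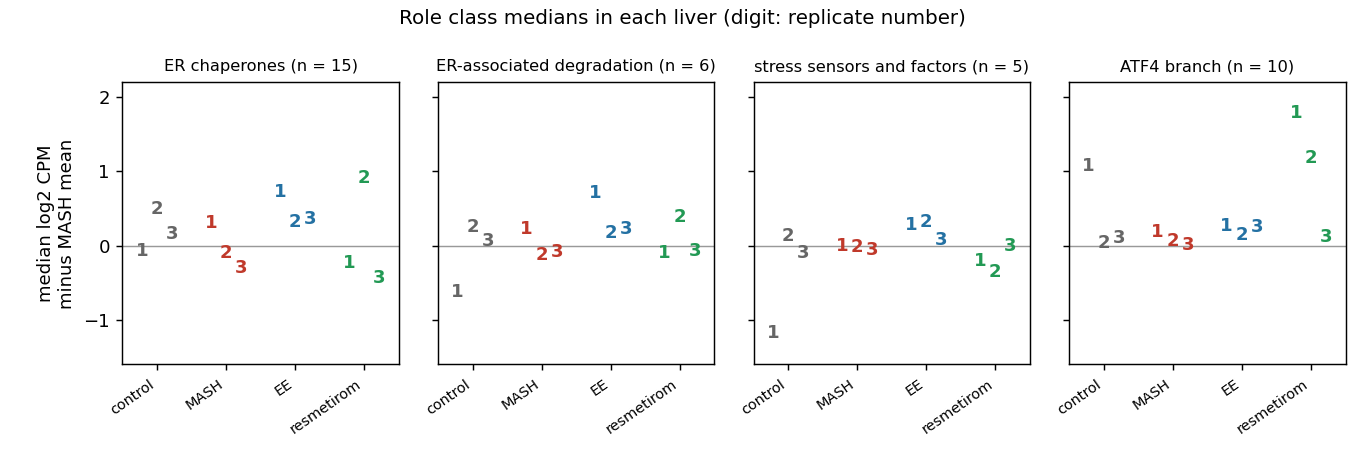
Median over the genes of each role class of log2 CPM relative to the MASH mean, by group; each digit is 1 liver and gives its replicate number. The folding class is above 0 in all 3 EE livers, from 0.32 to 0.72, and also in MASH 1 (0.31), control 2 (0.50) and control 3 (0.16). It spans -0.43 to 0.91 in resmetirom, where resmetirom 2 is the high point. The ATF4 class is highest in resmetirom 1.

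The comparison of EE with MASH gave more calls when its 6 livers were fitted without the others. The 12-liver fit shares its spread with control 1 and the resmetirom livers: correlations of log CPM between livers were 0.978 to 0.982 within EE and MASH, 0.892 to 0.984 within control and 0.903 to 0.948 within resmetirom. In the 6 livers alone, 8 of the 35 members with enough counts rose in EE (22.9%), against 2.95% of all genes in that direction and 5.63% in either. They were Herpud1 (1.37 ± 0.15, adjusted p = 0.0082), Pdia5 (1.07 ± 0.12, adjusted p = 0.00948), Calr, Pdia6, Chac1, Sdf2l1, Derl3 and Cebpb, the last 6 at adjusted p from 0.0292 to 0.0456. No member fell in that fit.

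With the replicate number as a block in those 6 livers, 12 members rose (34.3%), against 10.6% of all genes, and Atf6 fell by 0.33 ± 0.08 on the log2 scale (adjusted p = 0.0236), where 20.7% of all genes were called in either direction. The 4 further members that rose were Pdia3, Dnajb11, Creb3l3 and Ern1, at differences from 0.25 to 0.45. The labels name no pairing of livers, and this block was chosen from the same data, so its p-values rest on an assumed pairing. Hspa5 was not called in either fit, with 0.42 ± 0.45 (adjusted p = 0.59) and, with the block, 0.42 ± 0.17 (adjusted p = 0.14). When only control 1 and resmetirom 2 were left out, Herpud1, Pdia5 and Derl3 rose, against 0.472% of all genes called. The members with a promoter holding ERSE or ERSE-II made up 4 of the 8 called in the 6 livers. All 11 of them were positive in EE against MASH, with a median of 0.46, and 17 of the 21 members with a promoter holding neither were positive, with a median of 0.41.

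In resmetirom the folding and degradation classes rested on 1 liver. With resmetirom 2, 26 members were positive against MASH and the folding class had a median of 0.17. Without it, 15 were positive, the folding median was -0.35 and the degradation median went from 0.26 to -0.13. Without control 1 and resmetirom 2, Pdia3, Dnajc3, Sdf2l1 and Herpud1 fell in resmetirom against control, by 0.70 ± 0.17, 0.80 ± 0.19, 1.07 ± 0.26 and 0.83 ± 0.19 on the log2 scale (adjusted p = 0.0375, 0.0383, 0.0414 and 0.0344), where 7.46% of all genes were called, and Psat1 rose by 4.29 ± 0.99 (adjusted p = 0.0372). Resmetirom 2 held the highest value of all livers for Pdia3 and Sdf2l1, and control 1 the lowest for Dnajc3 and Herpud1. Leaving these livers out therefore lowers those differences by itself, and only control 2 and 3 and resmetirom 1 and 3 remain. Resmetirom 1, with the highest Psat1 value, stayed in that fit. The 5 members that DESeq2 called higher in resmetirom than in MASH, where it called 4.73% of all genes, were Asns, Cebpb, Pdia5, Phgdh and Psat1.

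Other genes of the pathway were counted in 5 lists of 111 genes, of which 109 were tested. Over the 4 groups 0 were called by edgeR, the lowest adjusted p being 0.055 for Bak1, and 0 were called in EE against MASH, resmetirom against MASH, MASH against control and EE against control. In EE against MASH, 16 of 22 other folding and disulfide enzymes were positive with a median of 0.26, as were 16 of 21 genes of ER entry and glycosylation with a median of 0.31. Of 18 other degradation genes 13 were positive (median 0.11), of 20 other sensors and regulators 9 (median -0.06), and of 28 other ATF4 targets 19 (median 0.22). The EE livers lay entirely above MASH for 12, 11, 8, 2 and 10 of these genes, in that order, against 16.7% of all genes. They lay entirely below MASH for 0, 0, 2, 2 and 3, against 15.5% of all genes. Ddost, a subunit of the oligosaccharyltransferase, stood at 117 ± 2.73 CPM (SD, n = 3) in EE and 77.6 ± 3.70 in MASH, and Sec61a1, the pore of the ER translocon, at 204 ± 10.3 and 150 ± 14.9.

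In resmetirom against control 3 of the 109 rose and 3 fell, where 3.16% of all genes were called in either direction. Bak1, a pore-forming protein of apoptosis, rose by 1.15 ± 0.21 (adjusted p = 0.0181), Creb3, an ER-bound factor related to Creb3l3, by 0.74 ± 0.17 (adjusted p = 0.0388), and Fgf21, a liver hormone raised by ATF4, by 3.80 ± 0.83 (adjusted p = 0.0337). Uggt2, a glucosyltransferase of glycoprotein quality control, fell by 1.87 ± 0.44, Fam8a1, a partner of the SYVN1 ligase, by 0.79 ± 0.19, and Vldlr, a lipoprotein receptor, by 3.27 ± 0.81, at adjusted p from 0.0427 to 0.0498. In resmetirom against MASH 24 of the 28 other ATF4 targets were positive, with a median of 0.44, and Vldlr was nearest to a call at -3.85 ± 0.81 (adjusted p = 0.0567). Mthfd2, a mitochondrial folate enzyme raised by ATF4, stood at 3.67 ± 2.99 CPM in resmetirom and 0.69 ± 0.34 in MASH, with the groups' difference at 2.41 ± 0.66 (adjusted p = 0.122).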

How the data were processed

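Expected counts of each Ensembl gene in 12 livers were deposited by the authors, who made them from stranded paired reads. Per the submitters' processing notes, fastp and the genome build GRCm39 were used; the aligner, counter, annotation and strand setting were not given in the sources used. Between 91.5% and 93.3% of a library's values were whole, and all were rounded. Symbols came from a GRCm38 gene table, which named 22603 of 28036 genes; 1 CPM stood for 17.3 to 21.8 counts.

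The members and the gene lists were chosen with earlier results of these data known. All 12 livers entered 1 fit with edgeR (version 4.0.16, R 4.3.3, TMM scaling, genes kept with filterByExpr by group, robust quasi-likelihood, 8 residual degrees of freedom, biological coefficient of variation 0.334). Adjusted p (Benjamini-Hochberg over 13988 genes) had to be below 0.05; the SE is the log2 fold change divided by the square root of F. An adjusted p comes from edgeR where no other tool is named. Genes named with values in each liver were a fixed set (Hspa5, Herpud1, Xbp1, Atf4, Ddit3, Asns, Trib3) and the 4 with the smallest p over the 4 groups in each class, and up to 3 of each pathway list; others (Pdia6, Calr, Hyou1, Creld2, Chac1, Atf3) were added after their values were seen. The labels name no pairing of livers. Same-numbered EE and MASH livers deviated together weakly (r = 0.190, 0.158 and 0.149), and in the other comparisons at least 1 pair was under 0.1. The block on replicate number in EE and MASH is therefore a choice made from these same data, without a known pairing. Alternatives were other scalings, DESeq2 1.42.0, limma 3.58.1 voom, filters, the replicate block, 2-group fits, removal of mitochondrially encoded genes, and left-out livers. The fits were tested on simulated data with the spread of these genes and changes set in genes at 1 CPM or above. The 12-liver fit called 12% to 16% of 2-fold changes and 67% to 76% of 4-fold changes. In EE against MASH it called 2 unchanged genes, and DESeq2 called 23.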

Additional observations from a re-analysis of the deposited data

How the results depend on the processing

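Members called, for EE against MASH, numbered 3 without both control 1 and resmetirom 2, 8 in the 2 compared groups alone and 13 in those with the replicate block, against 0 in all 12 livers. For resmetirom against MASH they numbered 5 with DESeq2, 2 without a filter, 1 without both livers and 0 to 2 when 1 liver was left out. For EE against control 1 was called without both livers. For resmetirom against control, 0 were called with library totals only, limma voom, the replicate block or the 2 groups alone (with or without a block), 5 without both livers and 0 to 2 with 1 liver left out. Over the 4 groups, 0 were called with upper-quartile scaling, library totals only, limma voom or the block, 5 with DESeq2, 2 without a filter, 8 without both livers and 0 to 2 with 1 liver left out. The block changed no other count of members.

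Without both livers the folding median was -0.35 in resmetirom against MASH and -0.54 against control, and the degradation median -0.13 and -0.39. Library totals only gave degradation medians of 0.31 in MASH against control and -0.089 in EE against MASH. Class medians stayed within the replicate spread in 114 of 120 alternatives and 235 of 240 left-out livers. These totals say little, because many left-out livers lay outside the compared groups and could hardly move the median. The spread was the pooled SD within groups, which includes control 1 and resmetirom 1 and 2. With 1 liver left out, the folding median ranged from -0.35 to 0.41 in resmetirom against MASH and from -0.50 to 0.34 against control, the degradation median from -0.13 to 0.32 in resmetirom against MASH, the sensor median from -0.14 to 0.68 in EE against control and the ATF4 median from 0.31 to 1.13 in resmetirom against control. The Derl3 difference of resmetirom from MASH was -0.27 without both livers, and it ranged from -0.28 without resmetirom 2 to 2.75 without resmetirom 1. The cause was not tested.

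All tested genes called, in the order MASH against control, EE against MASH, resmetirom against MASH, EE against control, resmetirom against control and any group, numbered 2, 1, 93, 14, 442 and 224, against 87, 28, 657, 589, 1545 and 1649 with DESeq2, 34, 8, 243, 117, 537 and 671 without a filter, 9, 67, 467, 589, 1059 and 1104 without both livers, 1, 1, 38, 0, 37 and 48 with library totals only, 1, 0, 100, 9, 354 and 99 with limma voom and 2, 5, 112, 17, 327 and 122 with the block. The 2 groups alone gave 0, 746, 0, 0 and 5, and with the block 0, 2745, 27, 0 and 0. Depth limits Psat1, Phgdh, Asns, Chac1, Ddit3 and Derl3, which have few counts in some livers.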
